A study of Mus musculus with 24 samples.

Results

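The binding sites of Prrx1 in mouse mammary cancer-associated fibroblasts were sorted by the histone marks around them. ChIP-seq with an antibody to PRRX1 gave a list of 8000 summits (the single base where the pile of reads over a site is highest) in MMTV-CAFs, out of 16746 PRRX1 summits in the 3 fibroblast types of the series. A summit counted as acetylated when a summit of acetylated histone H3 lysine 27 (H3K27ac) lay within 500 bp. It counted as methylated when its window of 250 bp on each side touched a broad region of trimethylated histone H3 lysine 4 (H3K4me3). This put 2673 summits (33.4%, Wilson 95% interval 32.4 to 34.5) in the class with both marks, 960 (12.0%, 11.3 to 12.7) in the class with acetylation only, 1464 (18.3%, 17.5 to 19.2) in the class with H3K4me3 only and 2903 (36.3%, 35.2 to 37.3) in the class with neither mark. These shares depend on the limits more than on counting error. With H3K27ac within 250 bp they were 15.7%, 5.60%, 36.1% and 42.7% in the same order, with H3K27ac within 1000 bp 44.4%, 16.8%, 7.30% and 31.5%, and with H3K4me3 regions of −log10 q 5 or more 22.0%, 23.4%, 13.6% and 41.0%.

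MMTV-CAFs are fibroblasts from mammary tumours of FVB/NJ mice that carry the PyMT oncogene under the MMTV promoter, which is active mainly in mammary epithelium. The wild-type (WT) cells had received a control guide RNA (SgNS), and SG cells a guide RNA against Prrx1. The lists used for comparison came from C57BL/6 mice: embryonic fibroblasts (MEF) as WT, SG and a knock-in genotype labelled KI, and fibroblasts from healing skin wounds as WT and SG. The study describes its knock-in MEF as Prrx1 mutants, with LacZ placed inside the homeodomain of Prrx1. All of these cells had been immortalised with the HPV genes E6 and E7, so the WT cells are cultured lines and not fibroblasts taken straight from a tumour. Each group has 1 library per antibody, and no p-value is given anywhere below. Wilson intervals cover counting error over summits and not the difference between cultures. No PRRX1 list from SG cells was analysed here, so the share of summits that the antibody would also give without Prrx1 is not known. The sequencing depth behind the lists is unknown as well.

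Prrx1 is a paired-type homeodomain transcription factor of mesenchymal cells, needed for limb and craniofacial development and linked to the myofibroblast state. Homeodomains read short AT-rich words built on TAAT, and paired-type homeodomains can sit as dimers on palindromes of it such as TAATTA. H3K27ac marks active promoters and enhancers. H3K4me3 marks mainly the starts of transcribed genes. A site with neither mark lies outside what these marks show as active in the same cells.

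The labelled cell type was checked on marker genes. A transcription start site (TSS) was covered by H3K4me3 in 9 of 11 fibroblast marker genes, 1 of 10 epithelial, 2 of 8 immune and 1 of 8 endothelial markers. H3K27ac lay at the TSS of 7, 1, 2 and 0 of them. The histone lists of MMTV-CAF WT thus had both marks on most fibroblast markers and on few markers of other cell types.

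The sequences under the strongest sites show what the PRRX1 antibody recovered in each class. The score of a summit is the value deposited beside it, read as −log10 p from the layout of the peak caller's files. The list holds exactly 8000 summits and reaches down to 3.01, below the cutoff stated in the study's methods, so the scale is not certain and the score is used only to compare summits within the list. Of each class, 2 strong sites outside annotated untranslated regions are given, 61 bases centred on the summit, read on the plus strand of mm9 (NCBIM37, the C57BL/6 reference, which may differ from the FVB/NJ genome of these cells). Capitals mark the word CATCTG and a homeodomain core, ATTA or else ATCA, that follows it after 6 bases. On the other strand this reads TAAT or else TGAT, then 6 bases, then CAGATG. This spaced pair was noticed in these sequences and added to the words searched after they had been seen.

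Both marks, near Tmem204, chr17:25220502-25220562, intron of Ift140, score 64.0:
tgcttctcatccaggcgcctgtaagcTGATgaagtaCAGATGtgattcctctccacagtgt
Both marks, near Jmjd1c, chr10:66466226-66466286, intergenic, score 62.7:
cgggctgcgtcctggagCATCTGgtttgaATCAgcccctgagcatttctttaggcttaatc
Acetylation only, near Rab11fip4, chr11:79619710-79619770, intergenic, score 88.8:
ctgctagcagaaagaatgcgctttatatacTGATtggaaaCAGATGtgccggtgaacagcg
Acetylation only, near AI480653, chr16:30888770-30888830, intergenic, score 76.8:
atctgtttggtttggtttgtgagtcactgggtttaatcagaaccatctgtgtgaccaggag
H3K4me3 only, near Fggy, chr4:94984626-94984686, intergenic, score 73.8:
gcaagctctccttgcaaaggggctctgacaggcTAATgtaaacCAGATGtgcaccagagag
H3K4me3 only, near Notch1, chr2:26350092-26350152, intron, score 66.2:
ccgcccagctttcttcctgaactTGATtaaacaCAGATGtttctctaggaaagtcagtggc
Neither mark, near Kera, chr10:97087893-97087953, intergenic, score 66.6:
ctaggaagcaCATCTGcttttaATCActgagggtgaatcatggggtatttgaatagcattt
Neither mark, near Trappc9, chr15:72899498-72899558, intergenic, score 58.3:
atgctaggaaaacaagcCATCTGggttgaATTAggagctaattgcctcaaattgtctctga

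The sites with both marks, with acetylation only and with neither mark are among the 3 highest-scoring of their class. Those with H3K4me3 only were picked because they hold the pair. With neither mark, the site near Ccdc3 (score 60.1), which lacks the pair, outscored that near Trappc9 and is not printed. The number of pairs shown is thus no measure of its frequency. Among the 5 highest-scoring summits of each class the pair was found at 3 with both marks, 1 with acetylation only, 1 with H3K4me3 only and 3 with neither. The site near AI480653 has CATCTG, a form of the E-box, without a core at that spacing, and next to it the word TGAGTCA in its plain form, which AP-1 factors such as Fosl2 and Junb read. The highest-scoring site of the class with both marks, at Ccdc97 with a score of 87.5, lies in an exon of that gene that is annotated as untranslated. Its pair alone, chr7:26496904-26496919, reads CATCTGgctttcATTA. It was shared with the PRRX1 lists of MEF and wound-healing fibroblasts, as were the sites near Tmem204, Jmjd1c, Rab11fip4, Fggy, Kera and Trappc9. That near AI480653 was in the list of wound-healing fibroblasts and not in that of MEF.

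Some sites hold both words. In the class with acetylation only, the strongest site with TAATTA lies in an intron of Ntn1, the gene of the guidance cue netrin 1, at chr11:68042948-68043148 with a score of 39.5. It is shown over 201 bases because it holds TAATTA and the pair side by side, with the core of the pair inside the palindrome. It was in the PRRX1 lists of both other WT fibroblast types, and the H3K27ac summit beside it was not in the list of MMTV-CAF SG.

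Ntn1, acetylation only:
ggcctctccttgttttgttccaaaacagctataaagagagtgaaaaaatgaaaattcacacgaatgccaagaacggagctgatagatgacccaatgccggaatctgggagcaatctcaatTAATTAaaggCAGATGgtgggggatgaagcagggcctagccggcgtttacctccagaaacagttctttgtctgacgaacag

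Not every strong site has either word. The highest score of the whole list, 92.4, was of a summit with H3K4me3 only in an intron of Zc3h7a, 9.46 kb upstream of the TSS of Txndc11, and its sequence is shown because it is so GC-rich, 88.5% over 61 bases. Neither CATCTG nor TAATTA lay within 100 bp of it, and its central 31 bases occur at 2 places in the reference genome.

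Txndc11, H3K4me3 only, chr16:11144171-11144231:
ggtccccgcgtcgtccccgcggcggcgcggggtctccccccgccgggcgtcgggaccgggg

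A further pair of strong sites shared sequence, the summit near Pxmp3 with H3K4me3 only (score 80.9) and the summit near Ccdc3 with neither mark (score 60.1), whose windows of 201 bases have an identical run of 51 bases. Both were in the PRRX1 list of wound-healing fibroblasts and not in that of MEF. Central sequences found more than once made up 2.54% of all summits (203), from 1.20% with both marks to 4.13% with neither. The share was 12.0% among the 50 strongest sites with H3K4me3 only. This look was added after the sequences had been seen.

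It was asked first where in the genome each class lies. A coding TSS lay within 1 kb of 38.0% (36.2 to 39.9) of summits with both marks and 33.3% (31 to 35.8) of those with H3K4me3 only, but of 1.46% (0.871 to 2.43) with acetylation only and 1.34% (0.984 to 1.83) with neither. The median distance to a TSS was 5844 bp with both marks and 2452 bp with H3K4me3 only, against 40041 bp and 34399 bp in the classes without H3K4me3. The mark that sorted the summits is itself a mark of gene starts. Within 10 kb of a TSS lay 56.0% of summits with both marks, 65.6% with H3K4me3 only, 14.7% with acetylation only and 21% with neither.

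**Figure D1:**
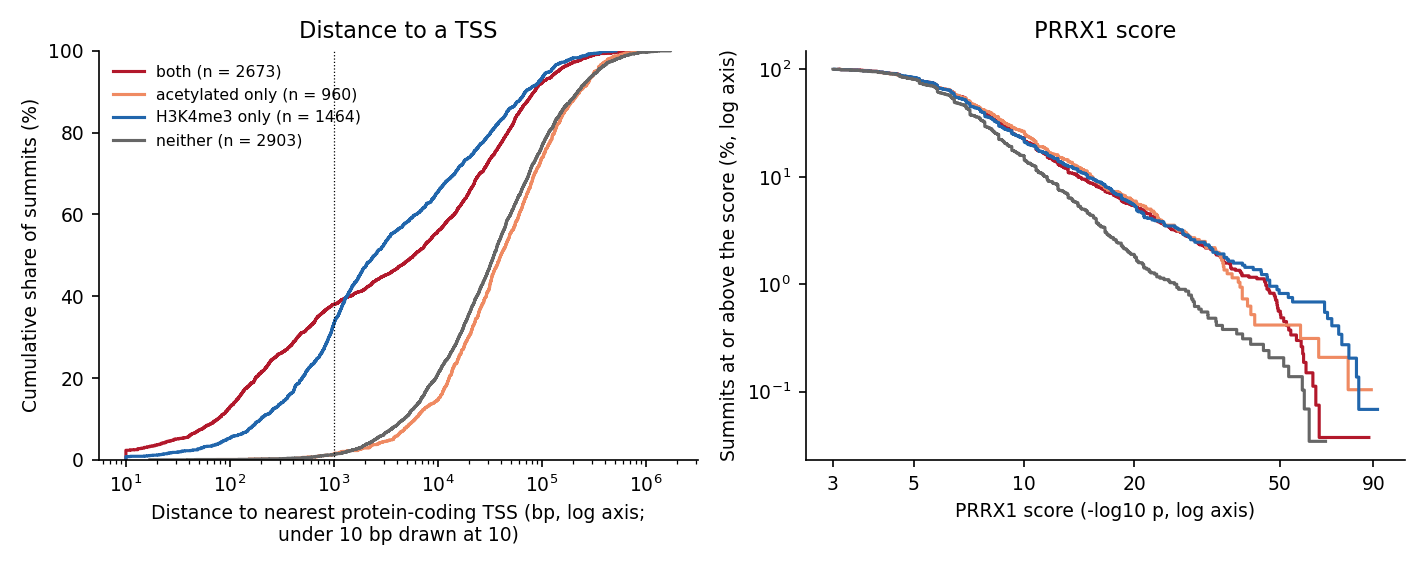
Left, cumulative share of the PRRX1 summits of MMTV-CAF WT (percent) against the distance to the nearest coding TSS (bp, log axis), 1 line per class, with a dotted line at 1 kb. Right, share of summits at or above a PRRX1 score (percent, log axis) against the score (−log10 p, log axis). The 2 classes with H3K4me3 reach 38.0% and 33.3% at 1 kb while the others stay under 1.5%, and the class with neither mark falls below the rest at scores over 10.

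Both classes with H3K4me3 differed in where at the promoter the summit lay. Of the 1017 promoter summits with both marks, 34.3% (349) were within 100 bp of the TSS, against 16% (78 of 488) with H3K4me3 only. With upstream counted as negative, the median position was -66 bp with both marks and -140.5 bp with H3K4me3 only. Similar shares lay downstream of the TSS, 35.9% and 34.8%. In the classes without H3K4me3, introns held 41.8% of summits with acetylation only and 45.1% with neither mark, and intergenic sequence 55.7% and 51.7%.

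The regions of H3K4me3 themselves were also unlike. Those at summits with H3K4me3 only were wider, with a median of 3161 bp against 2073 bp with both marks. This held for regions with a TSS (4661 against 3631 bp) and without one (1320 against 1081 bp). The median fold enrichment over input was 7.73 against 5.15, but 10.1 in both classes in regions with a TSS and 3.12 against 3.09 in those without. Regions with a TSS held 54.4% of summits with H3K4me3 only and 44.7% with both marks. Regions over 4 kb made up 37.7% against 21.4%. An H3K27ac summit lay somewhere in the region for 80.9% of summits with H3K4me3 only, and in 98.4% where the region also held a TSS, against 60.0% where it did not. The nearest H3K27ac summit of this class was strong, with a median −log10 p of 51.6, and lay at a median of 843 bp. Most summits of this class thus lay in regions that also had an H3K27ac summit, at more than 500 bp. When an H3K27ac summit anywhere in the region counted as acetylation, 3.50% of all summits were left with H3K4me3 only.

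The rule keeps the classes without acetylation more than 500 bp from any H3K27ac summit, so the distances that follow are a description and part of them is fixed by the rule. In 54.0% (52.2 to 55.9) of summits with neither mark no H3K27ac summit was found within 10 kb, against 7.04% with H3K4me3 only, and with neither mark the nearest was at a median of 12250 bp. Summits just inside and just outside the limit of 500 bp had like scores, with a median of 7.19 for the 624 summits in the last 100 bp inside it and 7.12 for the 404 in the first 100 bp outside it. For H3K4me3, 3573 summits lay in a region, 564 within 250 bp of one (median score 7.12) and 250 a further 250 bp away (median score 7.12).

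The median score was 7.12 with both marks, 7.12 with acetylation only, 6.95 with H3K4me3 only and 6.45 with neither. The quartiles overlapped widely, at 5.64 to 9.42 with both marks and 5.18 to 8.44 with neither. The difference was clearest among strong summits. A score of 20 or more was reached by 5.39% (4.59 to 6.31) with both marks, 5.94% (4.61 to 7.62) with acetylation only and 5.46% (4.41 to 6.75) with H3K4me3 only, but by 1.86% (1.43 to 2.42) with neither. From the lowest to the highest quartile group of scores, the share of summits with neither mark went from 40.5% to 28.1% and that with both marks from 31.1% to 37.5%. The share within 1 kb of a TSS did not follow the score, at 19.9%, 19.4%, 18.6% and 19.9% from the lowest group to the highest.

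Binding also followed the strength of acetylation when it was read from the side of the mark. Of the 53873 H3K27ac summits in MMTV-CAF WT, 7.36% had a PRRX1 summit within 500 bp. The share went up from 3.31% in the weakest quartile group of H3K27ac −log10 p through 5.14% and 8.09% to 12.8% in the strongest. The median −log10 p of the nearest H3K27ac summit was 39.5 at PRRX1 summits with both marks and 14.6 with acetylation only, against 25.4 and 11.5 for H3K27ac summits without PRRX1 with and without H3K4me3. In the strongest group, 17.7% of H3K27ac summits beyond 1 kb of a TSS had PRRX1 and 10.1% of those within it. Of the H3K4me3 regions, 11.8% held a PRRX1 summit, 15.8% of those with a TSS and 9.10% of those without. Per length the order was the other way, with 55.1 PRRX1 summits per Mb in regions with a TSS and 109 per Mb in those without.

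The sequence around the summit was compared next. TAATTA lay within 100 bp of 52.1% (50.3 to 53.9) of summits with neither mark, 31.1% (28.3 to 34.1) with acetylation only, 30.5% (28.2 to 32.9) with H3K4me3 only and 21.6% (20.1 to 23.2) with both. At positions 2 kb to either side the shares were 6.63%, 6.67%, 5.50% and 4.88%. H3K27ac summits without PRRX1 had the word in 1.96% with H3K4me3 and 3.0% without it, and coding TSS positions in 1.89%. The windows at those H3K27ac summits were centred on the mark. At PRRX1 summits the nearest H3K27ac summit lay at a median of 262 bp with both marks and 266 bp with acetylation only. Windows centred on the mark may thus miss a bound centre, here and for the words below. The word was concentrated at the summit, with 21.2 occurrences per 100 summits in the central 20 bp of the class with neither mark and 4.94 with both.

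**Figure D2:**
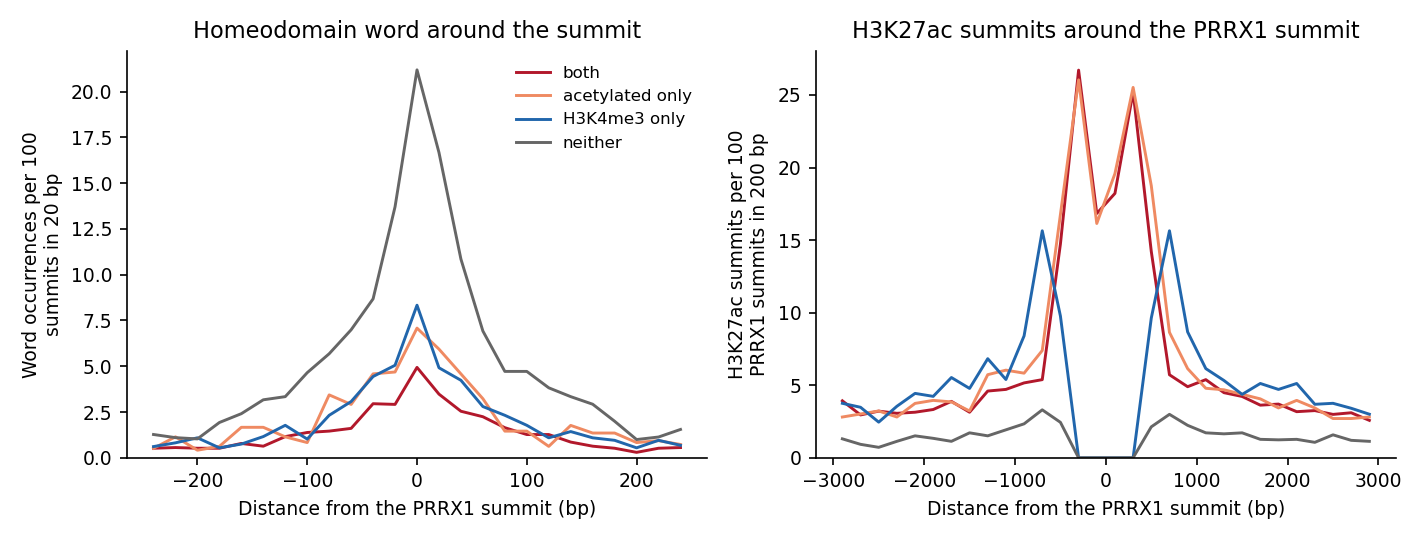
Left, occurrences of the homeodomain word per 100 summits in bins of 20 bp against the distance from the PRRX1 summit (bp), 1 line per class. Right, H3K27ac summits per 100 PRRX1 summits in bins of 200 bp. On the left all 4 classes peak at the summit, from 4.94 with both marks to 21.2 with neither. On the right the gap within 500 bp in the classes without acetylation and the rise there in the classes with acetylation are fixed by the rule.

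In every quartile group of scores the class with neither mark had the highest share and that with both marks the lowest. From the lowest group to the highest, the share with TAATTA went from 41.3% to 59.4% with neither mark and from 14.1% to 29.7% with both. Base composition moved with it. The median GC content over 250 bp on each side of the summit was 49.9% with both marks, 44.1% with acetylation only, 47.1% with H3K4me3 only and 42.9% with neither, and the part of GC content in the share of AT-rich words was not tested. At the positions 2 kb away, whose medians were 43.3% to 45.5%, TAATTA shares differed by less than 2 points between the classes. Within the class with both marks, 18.5% of promoter summits had the word. With H3K4me3 only, 29.1% of promoter summits did. Summits with the word had a higher median score in each class, 8.16 against 6.93 with both marks, 7.32 against 7.04 with acetylation only, 7.56 against 6.67 with H3K4me3 only and 6.97 against 6.24 with neither.

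The AP-1 word, TGAGTCA with its other strand TGACTCA, had another order. It was most common with acetylation only, at 23.2% (20.7 to 26), followed by 15.9% (14.6 to 17.4) with both marks, 11.4% with H3K4me3 only and 9.16% with neither, against 3.07% to 3.59% 2 kb away. H3K27ac summits without PRRX1 had it in 2.46% with H3K4me3 and 3.83% without, again in windows centred on the mark. AP-1 factors are known to open enhancers in many cell types, fibroblasts included. The RUNX word TGTGGT was at 23.9% with acetylation only and at 14.8% to 17.7% in the other classes, where 14.3% to 15.6% was found 2 kb away. GGGCGG, the word of SP and KLF factors at GC-rich promoters, lay near 18.3% of summits with both marks, 10.9% with H3K4me3 only, 1.77% with acetylation only and 2.17% with neither, below its 38.6% at coding TSS positions. The ETS word CCGGAA followed the same order, at 9.58%, 6.08%, 1.88% and 2.10%. The TEAD word GGAATG was at 13.9% to 18.5% in the 4 classes against 10.7% at positions 2 kb away. The SMAD word CAGACA was at 16.3% to 19.8%, against 16.5% to 21.1% of H3K27ac summits without PRRX1. All words were searched on both strands within 100 bp, and a match is no proof of a bound factor.

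The pair of CATCTG and a core was then counted at every spacing from 0 to 12 bases, a search added after the printed sequences had been seen. CATCTG is one form of the E-box that bHLH factors read, and composites of an E-box with a homeodomain core are known from embryonic mesenchyme of face and limb, where Twist1 binds them with homeodomain factors. With ATTA, 123 of the 8000 summits had the pair at 6 bases, against 5 to 19 (median 8) at the 12 other spacings. With ATCA, 46 had it, against 1 to 11 (median 5.5). At 16000 positions 2 kb away the counts at 6 bases were 7 and 4. Among 49909 H3K27ac summits without PRRX1 they were 18 and 23, in windows centred on the mark. Lists that were not used to find the pair had it at the same spacing. In the MEF list 72 of 3048 summits had the ATTA form, against 2 to 10 elsewhere, and in the list of wound-healing fibroblasts 112 of 5698, against 4 to 14. These lists share sites with that of MMTV-CAFs. Among their summits that MMTV-CAFs lacked, it was 17 of 2159 in MEF (1 to 5 at other spacings) and 38 of 4042 in wound-healing fibroblasts (2 to 9).

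**Figure D3:**
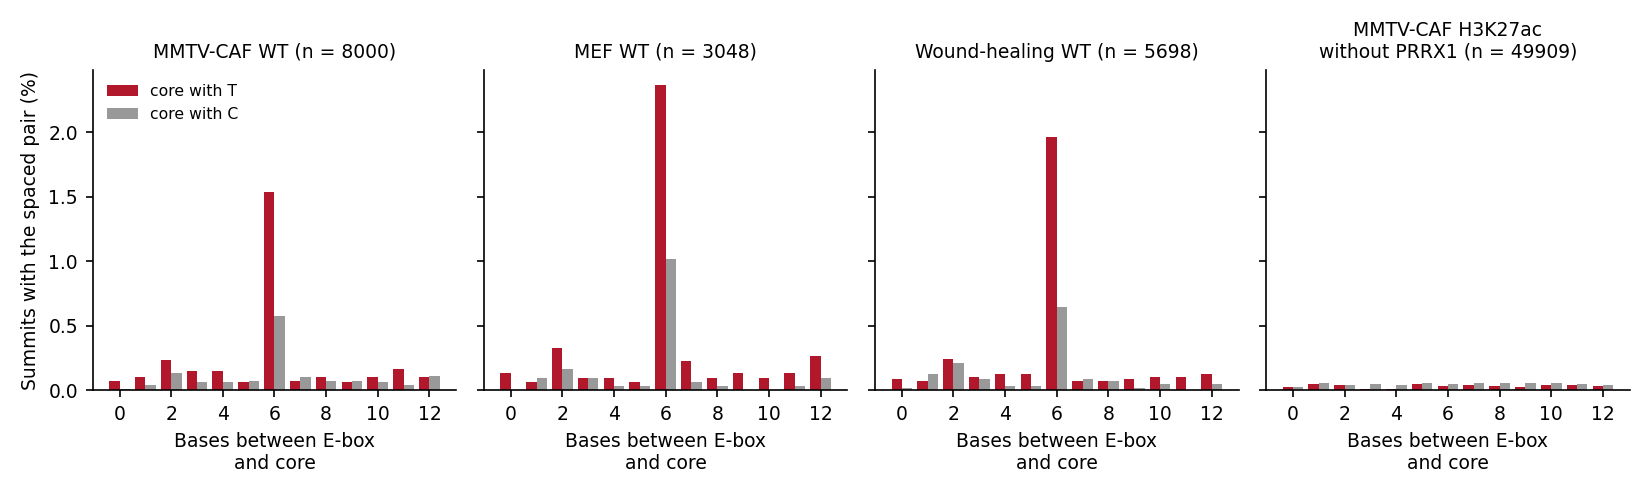
Share of summits (percent) with the E-box word and a homeodomain core on 1 strand, against the number of bases between them, in the 3 PRRX1 lists and at H3K27ac summits of MMTV-CAF WT without PRRX1. Red bars are the core that has T where the other has C, grey bars the core with C. The 3 PRRX1 lists each have a single high bar, at 6 bases (1.54% of summits in MMTV-CAF, 2.36% in MEF and 1.97% in wound-healing fibroblasts for the red bars), and the list without PRRX1 has none. Windows of the last list are centred on the H3K27ac summit and may miss a bound centre.

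By class, the intervals for the pair overlapped, unlike those for TAATTA in the classes with neither and with both marks. The pair lay near 1.83% (1.39 to 2.42) of summits with both marks, 3.02% (2.11 to 4.30) with acetylation only, 1.91% (1.33 to 2.75) with H3K4me3 only and 2.17% (1.7 to 2.77) with neither, 169 in all. The pair had been noticed in the highest-scoring sequences of this list, so its shares by score here are a description of the sites it was chosen from. From the lowest to the highest quartile group the share went from 0.4% through 0.652% and 1.25% to 6.15%, and it was 28.0% (17.5 to 41.7) of the 50 highest-scoring summits. CATCTG by itself lay near 62.0% of these 50, against 21.3% of all summits and 14.6% of positions 2 kb away. In the lists not used to find the pair, which share sites with this one, the highest quartile group of scores had it at 5.70% against 3.38% of all summits in MEF, and at 5.95% against 2.61% in wound-healing fibroblasts. The median score of summits with the pair was 18.6 with both marks, 14.5 with acetylation only, 16 with H3K4me3 only and 11.4 with neither, against 7.04, 7.06, 6.95 and 6.45 without it. TAATTA went the other way at the very top, at 16% to 20% of the 50 strongest summits in the classes with a mark and 42.0% with neither mark.

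The pair sat at the summit. Its middle was at a median of 17.5 bp from it, and 68.0% of the pairs were within 30 bp. It was rarer at promoters, at 0.770% of summits within 1 kb of a TSS against 2.44% beyond. The 6 bases between the words were of uneven make-up in these 169 sites. G followed CATCTG directly in 49.7% (42.3 to 57.2) and A in 5.92%, and A stood just before the core in 40.8%. The 3 strongest sites of each class below are read in the direction of the E-box, with the pair in capitals, so that the spacers can be compared.

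Both marks, Ccdc97: CATCTGgctttcATTA
Both marks, Tmem204: CATCTGtacttcATCA
Both marks, Jmjd1c: CATCTGgtttgaATCA
Acetylation only, Rab11fip4: CATCTGtttccaATCA
Acetylation only, Foxk1: CATCTGtttccaATTA
Acetylation only, Ntn1: CATCTGcctttaATTA
H3K4me3 only, Fggy: CATCTGgtttacATTA
H3K4me3 only, Notch1: CATCTGtgtttaATCA
H3K4me3 only, Foxs1: CATCTGgtttggATTA
Neither mark, Kera: CATCTGcttttaATCA
Neither mark, Trappc9: CATCTGggttgaATTA
Neither mark, Cacna1c: CATCTGgaagtcATTA

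The genes at the summits were then counted by class. Of 22219 coding genes, 7.35% (1632) had a PRRX1 summit within 1 kb of a TSS. By class the share was 5.04% with both marks (1120 genes), 2.32% with H3K4me3 only (515), 0.176% with neither (39) and 0.063% with acetylation only (14). Of these genes, 97 had 2 or more promoter summits, and 55 of the 97 had summits of more than 1 class. With the gene body and 10 kb on each side, 22.1% of genes held a summit, 11.6% one with both marks, 6.63% one with H3K4me3 only, 7.52% one with neither and 2.18% one with acetylation only. Long genes have more room for these, and the median length was 24.0 kb for genes with a summit with both marks, 25.2 kb with H3K4me3 only, 60.5 kb with neither and 89.0 kb with acetylation only, against 15.5 kb for all genes.

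The strongest promoter sites with both marks were at Arhgap1 (score 61.5, 109 bp upstream), Pcolce, which speeds the maturation of procollagen (score 55.5, 13 bp upstream), AK129341 (48.5), Mon1b (46.9) and Sash1 (45.7). Arhgap1, Pcolce and Sash1 also had PRRX1 in the lists of MEF and wound-healing fibroblasts, Mon1b in the latter. The central 31 bases of the site at Pcolce, in a run of CAG repeats, occur more than once in the reference genome. With H3K4me3 only they were at Trim24, a chromatin reader (72.4, 374 bp upstream), the ephrin receptor Ephb3 (67.5, 1 bp upstream), Gm11168 (54.1), the phosphatase Ptprs (49.8) and the sphingosine 1-phosphate receptor S1pr2 (37.3). H3K27ac summits stood 506 to 1036 bp from those at Trim24, Ephb3, Ptprs and S1pr2, beyond the limit of the rule. Promoter sites without H3K4me3 were few, 39 with neither mark and 14 with acetylation only, against 1017 with both marks and 488 with H3K4me3 only, so their highest scores are the maxima of fewer sites. The median promoter score was 6.45 with neither mark, 6.02 with acetylation only, 6.95 with both and 6.68 with H3K4me3 only, and the upper quartile 10.4, 8.39, 9.26 and 8.84. With neither mark the strongest were at Il1rl1, the receptor of interleukin 33 (24.8), Sp1 (21.1), Gm11168 (19.1), Rptor (17.7) and the fibroblast growth factor receptor Fgfr2 (12.9). With acetylation only none passed 10.7, the score at Mmp27. The 2 summits at Gm11168 were in the list of wound-healing fibroblasts and not in that of MEF. The one with H3K4me3 only touched a region of 290 bp, and its nearest H3K27ac summit stood at 20944 bp. Regions of the genome prone to false signal were not filtered out here, so sites of that kind may be among the strongest. The sites at AK129341, Trim24 and Mmp27 lie in crowded stretches of the genome that are described further on.

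Away from promoters, the named sites with both marks were those at Ccdc97, Tmem204 and Jmjd1c printed above and one 9.63 kb upstream of Timp2, an inhibitor of matrix metalloproteinases (score 58.9). The site at Ccdc97 also falls in the 10-kb flank of Tgfb1, the gene of transforming growth factor beta 1, 24891 bp from its TSS. With acetylation only, further sites were near Cbfa2t3 (56.9) and in an intron of Srbd1 (42.7), and one lay 502 kb from Ttll7 (63.8). With H3K4me3 only, strong sites lay 93.9 kb upstream of S1pr3 (82.1) and 44.8 kb upstream of Slc44a3 (77.1), both in the 2 other PRRX1 lists. With neither mark, further sites lay 16.8 kb upstream of Adora3 (57.6) and in an intron of Cacna1c (52.8), also in both other lists.

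The 8 factors that the study put forward as candidate master regulators were looked up one by one. Prrx1 itself had 5 summits in its body and flanks. One with H3K4me3 only lay 18 bp from a TSS (score 7.12, with TAATTA, also in MEF), and the strongest, with both marks, 1181 bp from one (score 20.01). Fosl2, an AP-1 subunit, had one with both marks 661 bp from its TSS (8.53). Cebpb had one with H3K4me3 only at 163 bp (7.12). Nfix had 7 summits and none within 1 kb, the strongest with both marks (36.7) at 30619 bp. Tead1, a partner of Yap1, had 4, the strongest with neither mark (15.5), and Junb 1 with H3K4me3 only (4.53). None was found at Klf4 or Klf13. Col1a1, the main collagen gene of fibroblasts, had 4, the strongest with both marks (7.82) 7075 bp from a TSS. Counted as a list, 3 of 8 candidates had a promoter summit and 6 of 8 one in the body or flanks, against 7.35% and 22.1% of all coding genes. The median length was 37.0 kb for the candidates and 15.5 kb for all coding genes.

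Gene lists chosen with earlier results of these data known gave the following counts. Among 32 genes of collagens and matrix, 3 had a promoter summit (9.38%, against 7.35% of all genes) and 17 a summit in body or flanks (53.1%, against 22.1%), at a median gene length of 38.4 kb. The promoter summits were at Vcan (5.80), Thbs2 (4.59) and Col1a2 (3.57), all weak, while Loxl2, which cross-links collagen, had one with acetylation only of 34.1 at 30040 bp. Among 24 contractile genes it was 5 and 12, with promoter summits at Myh9 (13.9) and Flna (8.29) with both marks and at Cald1 (8.05), Zyx (7.32) and Acta2 (6.64) with H3K4me3 only. Acta2 encodes the smooth muscle actin that defines myofibroblasts. Among 25 genes of the TGF-beta pathway, of a median length of 52.1 kb, it was 4 and 15, with Ltbp1, which stores latent TGF-beta in the matrix (14.5, H3K4me3 only), Pmepa1 (11.6, both marks), Tgif1 (5.78) and Tgfbr3 (4.58) at promoters. Among 18 growth factors and receptors it was 5 and 12, with Angptl4 (13.7), Fgfr2 (12.9), Fgf7 (11.9) and Fgfr1 (6.45) first, and H3K4me3 only in 4 of the 5 genes. The median length was 51.2 kb for the growth factor list and 20.8 kb for the contractile list. H3K4me3 lay at a TSS of 81.2% of the matrix genes, 95.8% of the contractile, 100% of the TGF-beta and 94.4% of the growth factor genes, and H3K27ac at 71.9%, 91.7%, 96% and 88.9%, against 54.3% and 48.7% of all coding genes. The marks and the length thus moved with these counts, and their part was not tested.

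Among 25 homeobox and T-box factors of mesenchyme and limb, 5 had a promoter summit (20%) and 11 one in body or flanks (44%), against the same 7.35% and 22.1% of all coding genes. By the strongest promoter summit these were Tbx18 (12.0) and Pbx2 (8.53) with both marks and Zeb2 (10.8), Shox2 (10.4) and Prrx1 with H3K4me3 only. Zeb2 and Shox2 each had a further promoter summit with both marks. The paralogue Prrx2 had one with acetylation only of 33.4 at 1150 bp. Among 18 inflammatory genes it was 2 and 8, Has2 (8.0) and Il6 (4.64) at promoters. Among 12 genes of the TEAD and Yap1 group it was 2 and 8, at Yap1 and Cyr61 (5.76), and among 13 AP-1 genes 1 and 3, Fosl2, or 7.69% and 23.1%, near the shares of all coding genes. Among 22 cell cycle genes it was 3 and 9, at Ccnb1 (10.8), Myc (6.51) and Ccna2 (5.24). Over these 5 lists and the candidate factors, H3K4me3 lay at a TSS of 76% to 100% of the genes and H3K27ac of 55.6% to 100%. The highest promoter share of a list with over 11 genes was that of the 38 ribosomal protein genes, 31.6% (12 genes), among them Rpl8 (9.62), Rpl10a (9.52) and Rpl18 (7.63). All 38 have H3K4me3 at a TSS and 37 have H3K27ac there, so the mark at the promoter moved with the count here too. Of 11 fibroblast markers, of a median length of 36.7 kb, 3 had a promoter summit (27.3%) and 8 one in body or flanks (72.7%). Among 10 epithelial, 8 immune and 8 endothelial markers none had a promoter summit, and 1, 2 and 2 had one in body or flanks (10%, 25% and 25%). All coding genes had these in 7.35% and 22.1%. H3K4me3 lay at a TSS of 81.8% of the fibroblast markers and of 10%, 25% and 12.5% of the others. H3K27ac lay there in 63.6%, 10%, 25% and 0%, and the part of the marks was not tested.

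Some summits stood very close together on the genome. The median 1-Mb bin held 1 summit and the 99th percentile was 18, but 5 bins held 40 or more, 283 summits in all (3.54%). They were chr9:7000001-8000000 with 98, chr6:37000001-38000000 with 55, chr9:6000001-7000000 with 48, chr6:17000001-18000000 with 41 and chr9:8000001-9000000 with 41. The first holds Yap1, whose body and flanks had 29 summits, 4 of them within 1 kb of a TSS (best 33.5, both marks), and the second the promoter of Trim24. The histone lists of WT and SG cells differed in 4 of these 5 bins, with 92 H3K27ac summits in WT against 20 in SG, 88 against 33, 75 against 2 and 44 against 3, and 125 against 115 in the remaining bin on chromosome 6. Among 487 bins with at least 40 H3K27ac summits in WT the median ratio of SG to WT was 1.08. Only 5 bins had a ratio under 0.4, and 4 of them are these. Copy number was not measured, and its part in the counts there was not tested. PRRX1 summits in these bins were in the MEF list in 1.77% and in the list of wound-healing fibroblasts in 3.53%, against 11.6% and 21.3% elsewhere. Without the 5 bins the class with neither mark was 36.0% of summits, so the shares of the classes do not rest on them, while the counts at Yap1 do.

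**Figure D4:**
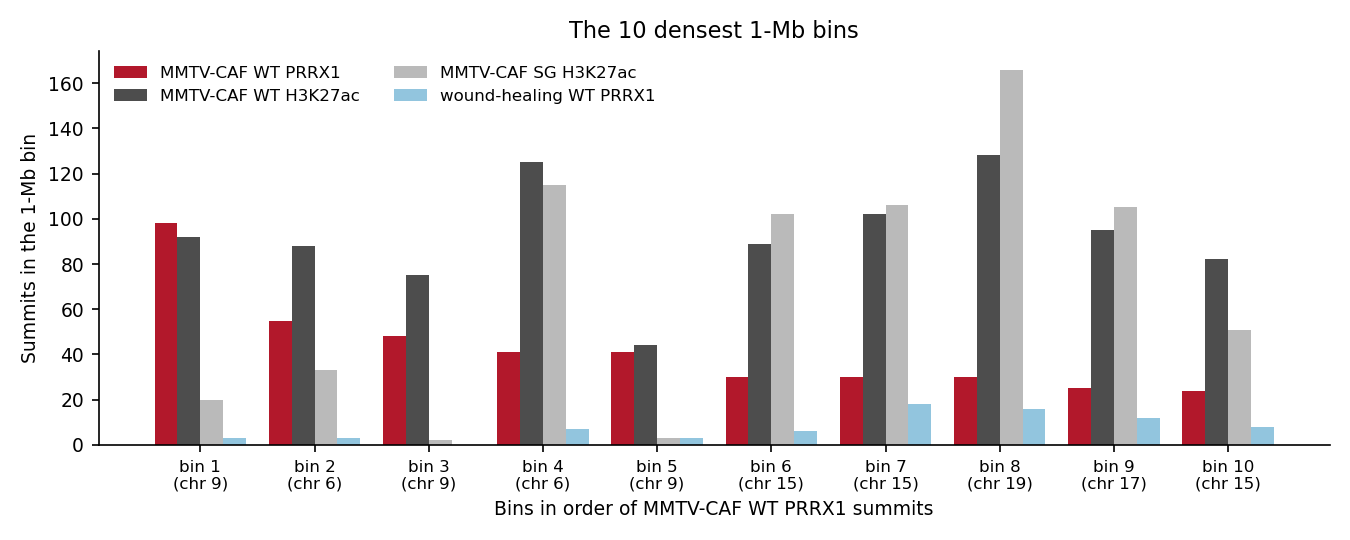
Number of summits in the 10 1-Mb bins with most PRRX1 summits of MMTV-CAF WT, for 4 lists (bars). The first 5 bins hold 41 to 98 PRRX1 summits of MMTV-CAF WT and at most 7 of wound-healing fibroblasts, and in bins 1, 2, 3 and 5 the light grey bars (H3K27ac in SG cells) are far below the dark ones (WT cells).

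Finally, the sites were looked up in the PRRX1 lists of the other fibroblasts. The list of MEF WT had a PRRX1 summit within 500 bp of 14.8% (13.5 to 16.1) of MMTV-CAF summits with neither mark and 14.0% (11.9 to 16.3) with acetylation only, but of 8.74% (7.40 to 10.3) with H3K4me3 only and 7.74% (6.79 to 8.82) with both. In wound-healing fibroblasts the class with neither mark was lowest, at 14.3% (13.1 to 15.7), against 24.9% (23.3 to 26.6) with both, 21.9% (19.4 to 24.6) with acetylation only and 24.9% (22.7 to 27.1) with H3K4me3 only. Positions 2 kb away gave 0.294% and 1.27%. The interval of the class with neither mark overlapped that with acetylation only in MEF and none in wound-healing fibroblasts. The opposite directions were also seen in the highest quartile group of scores, where 37.4% with neither mark and 19.7% with both were in the MEF list, and 34.3% and 47.9% in that of wound-healing fibroblasts. Sorted by the marks of their own cells under the same rule, 75% of MEF summits had neither mark and 4.92% both, and 56.7% and 22.0% in wound-healing fibroblasts. The mark lists differ in length. H3K4me3 regions numbered 27339 in MMTV-CAF, 16089 in MEF and 16961 in wound-healing fibroblasts WT, and H3K27ac summits 53873, 44918 and 33465. Shorter mark lists leave more summits with neither mark by construction.

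**Figure D5:**
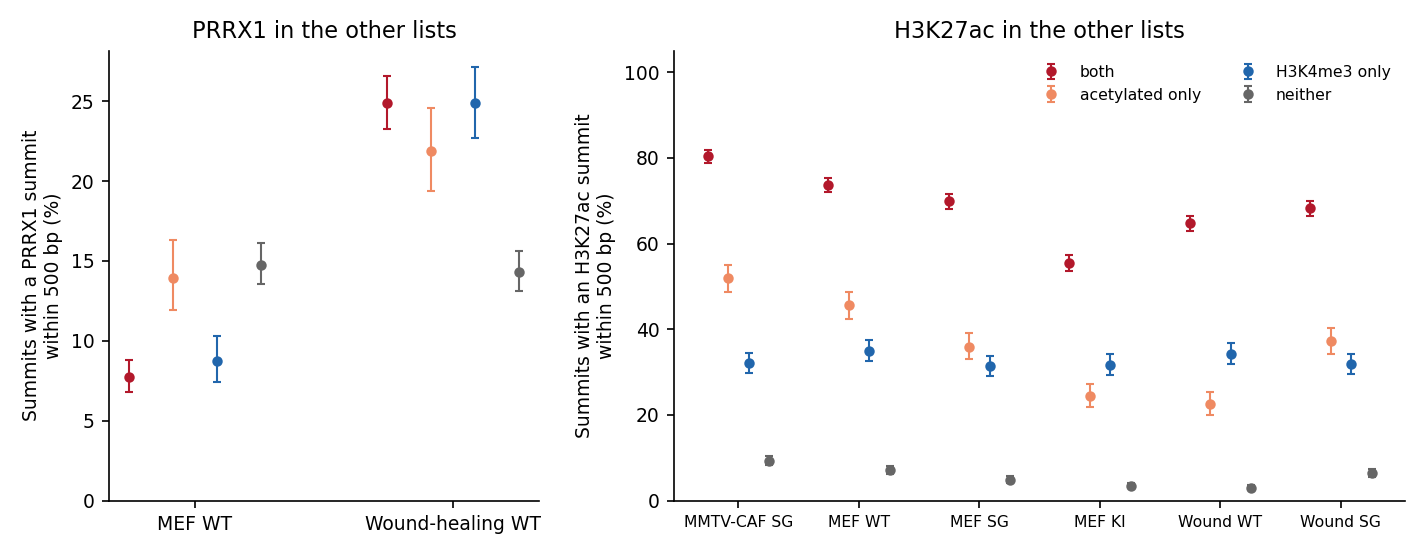
Left, share of MMTV-CAF WT PRRX1 summits (percent, points with Wilson 95% intervals) with a PRRX1 summit within 500 bp in MEF WT and wound-healing WT, by class. Right, the same for H3K27ac summits in 6 other lists. The class with neither mark is highest on the left of the first panel (14.8%) and lowest on its right (14.3%), and in the second panel it is lowest throughout, at most 9.30%.

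Sites with the spaced pair were shared more often. The pair had been noticed in strong sequences, most of them in both other lists, so part of this follows from how it was found. With the pair, 43.8% (36.5 to 51.3) were in the MEF list and 57.4% (49.9 to 64.6) in that of wound-healing fibroblasts, against 10.5% and 19.9% without it. Strong sites were shared more in general, and in the highest quartile group of scores it was 54.5% against 24.6% and 70.7% against 42.1%. Over the whole list the median score was 14.6 with the pair and 6.93 without it. Scores in the highest group run from 9.11 to 92.4 and were not matched. By class, in that group, the largest shares with the pair were of sites with both marks, 70.7% in MEF and 90.2% in wound-healing fibroblasts. With neither mark it was 40% with the pair against 37.2% without it for MEF. These shares rest on few sites, since over all scores the pair lay near 49 summits with both marks and 63 with neither. Summits with TAATTA were in the MEF list more often than those without it in 3 classes, at 19.9% against 9.20% with neither mark, 12.3% against 7.18% with H3K4me3 only and 11.8% against 6.63% with both. With acetylation only it was 13.4% against 14.2%. For the list of wound-healing fibroblasts the shares with and without TAATTA were 15.5% against 13.1% with neither mark, 22.1% against 21.8% with acetylation only, 27.3% against 23.8% with H3K4me3 only and 32.0% against 22.9% with both, and only in the class with both marks did the intervals not overlap. Over all summits it was 16.4% against 8.40% in MEF and 21.4% against 20.3% in wound-healing fibroblasts.

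The marks themselves were then followed into the other lists. In MMTV-CAF SG, where Prrx1 had been targeted, H3K27ac was called within 500 bp at 80.4% (78.8 to 81.9) of PRRX1 summits with both marks, 51.9% (48.7 to 55) with acetylation only, 32.0% (29.7 to 34.5) with H3K4me3 only and 9.30% (8.30 to 10.4) with neither. Within 250 bp the shares were 40.7%, 26.9%, 15.6% and 4.93%, which takes the difference between the classes with neither and with both marks from -71.1 to -35.8 percentage points. Within 500 bp, positions 2 kb away gave 17.4%, 14.5%, 21.9% and 6.51%. The class was the same in SG as in WT for 72.8% with both marks, 34.9% with acetylation only, 58.3% with H3K4me3 only and 86.2% with neither. Of H3K27ac summits with H3K4me3 in WT, 81.1% with PRRX1 and 75.7% without it were found again in SG, and of those without H3K4me3 51.6% and 47.1%. Summits with PRRX1 were stronger to begin with. From the weakest to the strongest quartile group of H3K27ac −log10 p, the shares with and without PRRX1 were 55.9% against 49.1%, 65% against 62.4%, 78.1% against 79.0% and 88.0% against 88.3% where H3K4me3 was present. Without H3K4me3 they were 36.0% against 35.5%, 45.7% against 47.7%, 63.6% against 65.9% and 75.4% against 79.2%. Within these groups the intervals with and without PRRX1 overlapped.

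Sites with neither mark in MMTV-CAF WT mostly had no mark in any of the cells. Neither H3K27ac nor H3K4me3 was near 79.3% of them in any of the 6 other pairs of lists, against 24.2% with acetylation only, 5.19% with H3K4me3 only and 2.10% with both. Of these pairs only those of MEF WT and wound-healing WT come from WT cells, and the rest from SG or KI cells. H3K27ac was found in at least 1 of the 6 for 17.4% of them, and in all 6 for 0.413%, against 96.0% and 33.3% for the class with both marks. MEF WT cells had H3K27ac at 7.10% of the sites with neither mark and wound-healing WT cells at 3.0%, so that the share of these sites with PRRX1 in MEF (14.8%) was above the share with acetylation there. Positions 2 kb from these sites had H3K27ac in 4.68% in MEF WT and 3.08% in wound-healing WT.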

How the data were processed

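ChIP-seq peak lists of 17 libraries were used, 1 per group and antibody. Per the labels and the study's methods, the authors trimmed reads (Trimmomatic), aligned them to mm9 with Bowtie and called peaks against the input with MACS2. The deposited PRRX1 and H3K27ac lists hold 1-base summits with a value read from the caller's layout as −log10 p, called the score. The PRRX1 list holds exactly 8000 summits and goes down to 3.01, below the stated cutoff, and 82.4% reach 5. For H3K4me3 the authors' caller joined nearby signal into regions, deposited with their mean fold over input and their −log10 p and −log10 q. It also gave each region a score, deposited beside these, that was not used. The study made PRRX1 ChIP in duplicate, and whether the list pools these is not given in the sources used here.

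Lists were compared by distance (scipy 1.17.1, pandas 2.3.3, numpy 2.4.6 and matplotlib 3.10.9 in Python 3.11.15), after a check of the distance code on simulated data. TSSs and genes came from GENCODE vM1 and sequences from NCBIM37, the build of the files. Promoters reached 1 kb from a TSS. Regions prone to false signal were not filtered out here. With 1 library per group no test was made, and shares have Wilson 95% intervals. The depth is unknown. Members and gene lists were chosen with earlier results of these data known. Named were the 5 highest-scoring summits of each class, overall and within 1 kb of a TSS, up to 4 genes per list by score, the 8 candidate factors and Col1a1, and 1 gene so chosen is not reported here. The spaced pair, repeated sequences, crowded bins and 5 alternatives were added after the values were seen, as were the names Prrx2, Loxl2, Tgfb1, Yap1, Notch1, Foxk1 and Foxs1. The other choices tried were the distances, the score cutoff, 1 TSS per gene and the definition of acetylation.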

Additional observations from a re-analysis of the deposited data

Results flagged for a closer look

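The class with neither mark stood on opposite sides of the class with both marks in the other 2 PRRX1 lists. In MEF WT its share of summits with PRRX1 was higher by 7.03 percentage points (5.39 to 8.68), and in wound-healing fibroblasts WT it differed by -10.5 points (-12.6 to -8.47). The intervals cover counting error over summits, and each list is 1 library, so the difference between the 2 lists was not tested.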

How the results depend on the processing

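Differences are neither mark minus both marks, in percentage points, and the 4 class shares are in the order both, acetylation only, H3K4me3 only, neither. Class shares moved with the limits that define them. H3K27ac within 250 bp gave 15.7%, 5.60%, 36.1% and 42.7%, and within 1000 bp 44.4%, 16.8%, 7.30% and 31.5%. H3K4me3 at the summit itself gave 28.7%, 16.7%, 15.9% and 38.7%, and within 1000 bp 35.6%, 9.76%, 21.6% and 33.0%. H3K4me3 regions of −log10 q 5 or more gave 22.0%, 23.4%, 13.6% and 41.0%. H3K27ac of −log10 p 10 or more moved 3 shares, to 9.59%, 19.3% and 38.7% for the last 3 classes. Acetylation anywhere in the region, an added choice, moved 2, to 48.2% with both marks and 3.50% with H3K4me3 only. A PRRX1 score of 10 or more gave 37.3%, 15.3%, 19.9% and 27.5%, and moved the difference in the share within 1 kb of a TSS from -36.7 to -30.7, in TAATTA from 30.5 to 27.9, in PRRX1 in MEF from 7.03 to 19.1, in PRRX1 in wound-healing fibroblasts from -10.5 to -14.0, in H3K27ac in SG from -71.1 to -64.0 and in genes bound from -4.87 to -0.981. With 1 TSS a gene the TSS difference was -33.4. TAATTA within 50 bp gave 22.5, within 250 bp 35.7, and with acetylation anywhere in the region 27.8. H3K27ac in SG gave -35.8 within 250 bp and -74.9 within 1000 bp. No difference changed sign, and the difference in the median score, -0.667, moved by less than the spread in each alternative run. Shorter distances and higher cutoffs hold fewer marks by construction. The lists were not thinned to 1 depth, which is unknown. No paired analysis was possible because every group has 1 library and no result comes from a test.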
